A study of Homo sapiens with 4 samples.

Results

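The genes described here are those that license replication origins and build the replication fork, measured in the established cell line NOMO-1, which came from an acute monocytic leukaemia. They were taken from a list of 42 genes, each matched to probe sets that carry that gene symbol alone, and the brightest probe set over the 4 arrays stood for its gene. All 42 were found among 18417 named genes, and all 42 were above the intensity filter that left 12892 genes to test. By role there were 10 licensing genes, 6 of helicase activation, 8 of the polymerases and primase, 5 of the sliding clamp and its loader, 2 of lagging-strand maturation, 4 of nucleotide synthesis, 3 E2F factors and 4 of chromatin and checkpoint. Cells had received lentivirus at a multiplicity of infection of 1, and total RNA was taken 48 h after selection. The control group, labelled ZFX wild type, held 1 array of the lentiviral GFP control, LEN-GFP, and 1 of the scrambled hairpin, SCR. The group labelled ZFX knock-down held 1 array each of the hairpins ZFX-SH1 and ZFX-SH3, so that no array repeats a construct. Nothing in the labels says that the cultures were independent, so the p-values measure the spread between constructs and arrays, which may be technical.

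Replication origins are licensed in G1, when the origin recognition complex, CDC6 and CDT1 load the MCM helicase onto DNA. In S phase CDC45 and the GINS complex join MCM to form the active helicase, primase and polymerase alpha start each strand, and polymerases epsilon and delta extend them on the PCNA clamp. Most of these genes are classical targets of the E2F factors, which are released from the RB family when cells commit to S phase, and they are highly expressed in dividing leukaemia cells.

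The targeted gene was lower on both hairpin arrays. ZFX had a log2 intensity of 10.65 on LEN-GFP, 10.66 on SCR, 10.13 on SH1 and 10.12 on SH3, a level at 69.3% of control (limma adjusted p = 0.797 over 12892 genes). Of 12 myeloid and monocytic markers on the array all 12 passed the intensity filter, with MPO, the granule peroxidase, among the brighter ones and CD14 dim at 7.35 on LEN-GFP. Of the 6 T cell markers 1 passed it, of 4 B cell markers 3, of 4 erythroid markers 2, of 4 megakaryocyte markers 2 and of 8 epithelial and fibroblast markers 4. The summed intensity of the myeloid list lay between 66397 and 69338 on the 4 arrays, and that of the T cell list between 390.9 and 429.5. MPO was at 12.31 on SH3 against 13.30 on SH1, 13.30 on LEN-GFP and 13.36 on SCR (SH3 against controls, limma adjusted p = 2.48e-04). The list as a whole did not go that way, with 4 of 12 markers lower on SH3 and a median of 0.16. FCER1G, an Fc receptor chain, was higher on SH3 (0.29, limma adjusted p = 0.0463), and CSF1R, the receptor of a macrophage growth factor, was higher on SH1 (0.96, adjusted p = 0.0355). Their part in the results for replication genes was not tested. In such bulk RNA, fewer cells in S phase and less of a transcript in each cell cannot be told apart.

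Promoters are shown first for members picked by their values on these arrays. They are the 5 that were lower on SH3 in the test of that hairpin (MCM6, GINS1, POLA2, TYMS and CHAF1B), GINS2, which was lower on both hairpin arrays by nearly the same amount, and TK1 and POLA1, which lay on the other side. Each run is the 160 bases upstream of the RefSeq start in GRCh38.p14, read 5′ to 3′ along the gene, and capitals mark a match to an E2F word (TTTCCCGC, TTTCGCGC, TTTGCCGC or TTTGGCGC, on either strand). The windows lie at chr2:135876444-135876603, minus strand for MCM6, chr20:25407513-25407672, plus strand for GINS1, chr16:85688955-85689114, minus strand for GINS2 and chr11:65261802-65261961, plus strand for POLA2. Those of the others are chr18:657493-657652, plus strand for TYMS, chr21:36385232-36385391, plus strand for CHAF1B, chr17:78187205-78187364, minus strand for TK1 and chrX:24693758-24693917, plus strand for POLA1. TK1 has 2 starts in the table, and the first listed is shown.
MCM6: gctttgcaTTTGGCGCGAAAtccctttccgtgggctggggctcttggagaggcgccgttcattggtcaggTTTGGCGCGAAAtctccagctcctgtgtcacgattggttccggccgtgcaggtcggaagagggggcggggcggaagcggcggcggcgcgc
GINS1: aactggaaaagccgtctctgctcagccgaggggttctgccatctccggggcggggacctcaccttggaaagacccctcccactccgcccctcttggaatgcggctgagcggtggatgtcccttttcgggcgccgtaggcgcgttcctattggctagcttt
GINS2: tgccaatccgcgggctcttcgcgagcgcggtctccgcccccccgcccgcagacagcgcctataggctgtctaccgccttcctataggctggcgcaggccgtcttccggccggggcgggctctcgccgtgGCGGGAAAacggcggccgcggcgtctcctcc
POLA2: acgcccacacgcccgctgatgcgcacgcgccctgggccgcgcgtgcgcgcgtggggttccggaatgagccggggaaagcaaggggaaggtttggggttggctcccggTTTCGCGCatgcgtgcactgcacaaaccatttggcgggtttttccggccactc
TYMS: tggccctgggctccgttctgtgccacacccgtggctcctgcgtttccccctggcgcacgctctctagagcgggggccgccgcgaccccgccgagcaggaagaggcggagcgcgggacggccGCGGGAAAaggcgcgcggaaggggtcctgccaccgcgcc
CHAF1B: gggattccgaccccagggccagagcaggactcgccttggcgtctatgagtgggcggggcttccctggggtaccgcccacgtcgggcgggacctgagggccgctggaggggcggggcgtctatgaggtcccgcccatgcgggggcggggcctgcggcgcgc
TK1: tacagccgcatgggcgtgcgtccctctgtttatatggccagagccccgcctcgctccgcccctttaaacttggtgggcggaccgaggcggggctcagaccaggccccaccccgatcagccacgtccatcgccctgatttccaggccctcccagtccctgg
POLA1: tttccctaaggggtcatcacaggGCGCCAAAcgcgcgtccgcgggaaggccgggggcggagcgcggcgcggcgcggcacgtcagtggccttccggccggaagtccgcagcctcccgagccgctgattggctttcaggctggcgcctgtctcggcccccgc

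The MCM6 promoter held 4 E2F matches, in 2 places where matches of opposite strand overlap, with first bases 152, 148, 90 and 86 bases upstream of the start. GINS2 held 1, 31 bases upstream, TYMS 1, 39 bases upstream, POLA2 1, 53 bases upstream, and POLA1 1, 137 bases upstream. GINS1 had its match downstream of the start, and in the windows of CHAF1B and TK1 these letters were not found. RefSeq promoter windows (250 bases before to 50 after a start) were at hand for 37 of the 42 genes, 48 windows in all. MCM4, MCM5, GINS4, POLD3 and E2F8 had none in the table. An E2F word was in 45.8% of the 48 windows against 3.31% of all 35116 windows, and the CCAAT box (CCAAT, either strand), which is bound by NF-Y, was in 58.3% against 34.6%. The letters AGGCCT, a core of the ZFX motif, were in 1 member window, that of CHAF1A, against 10.9% of all windows. The 21 members with an E2F word had a median difference between the groups of -0.11 (log2) and the 16 without one of -0.064, and 18 of 21 and 13 of 16 were lower. These matches describe letters only, and the higher POLA1 carries one while the lower CHAF1B does not.

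The 42 listed replication genes were mostly lower with the ZFX hairpins, by small amounts. Among 43 other replication genes, described further below, 25 were lower, with a median of -0.049. Both hairpins lay below both controls for 8 of those 43, near the share of all genes. Members and lists were chosen with earlier results of these data known. Of the 42, 35 had a lower mean on the hairpin arrays (83.3%, against 50.8% of all genes tested), and their median difference was -0.094 on the log2 scale, against -0.0029 over all 12892 genes. Both hairpin arrays lay below both controls for 18 members (42.9%), where the background was 19.0% of all genes, and above both for 4 (TK1, GINS4, POLA1 and ORC1), where it was 18.2%. With 1 array left out the count below was 19 without LEN-GFP (background 30.3%), 27 without SCR (33.6%), 22 without SH1 (39.8%) and 28 without SH3 (34.8%). The count above was 9 without LEN-GFP (33.5%), 5 without SCR (29.1%), 12 without SH1 (38.7%) and 6 without SH3 (34.5%). Differences ran from -0.40 for CHAF1B to 0.22 for TK1. No member passed limma's test of the groups, and neither did any of the 12892 genes (background 0% at an adjusted p of 0.05, smallest adjusted p 0.797). At an unadjusted p under 0.05 in limma there were 2 members, GINS2 and CHAF1B, both lower, against 3.26% of all genes on the lower side and 2.78% on the higher. Genes of the cell cycle vary together, so the 42 are not independent observations.

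For most members SCR lay below LEN-GFP. LEN-GFP was the highest of the 4 arrays for 23 members (54.8%, against 26.2% of all genes), and SCR lay below LEN-GFP for 31 members (73.8%, against 58.6%), by a median of -0.060, against -0.033 over all genes. SH1 was the lowest array for 18 members (42.9%, against 21.9%) and SH3 for 14 (33.3%, against 33.6%). Against SCR alone the members' median difference was -0.051 with 27 of 42 lower, where all genes had 0.0053 and 48.8% lower. Against LEN-GFP alone it was -0.15 with 35 of 42 lower, where all genes had -0.014 and 53.1% lower.

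**Figure D1:**
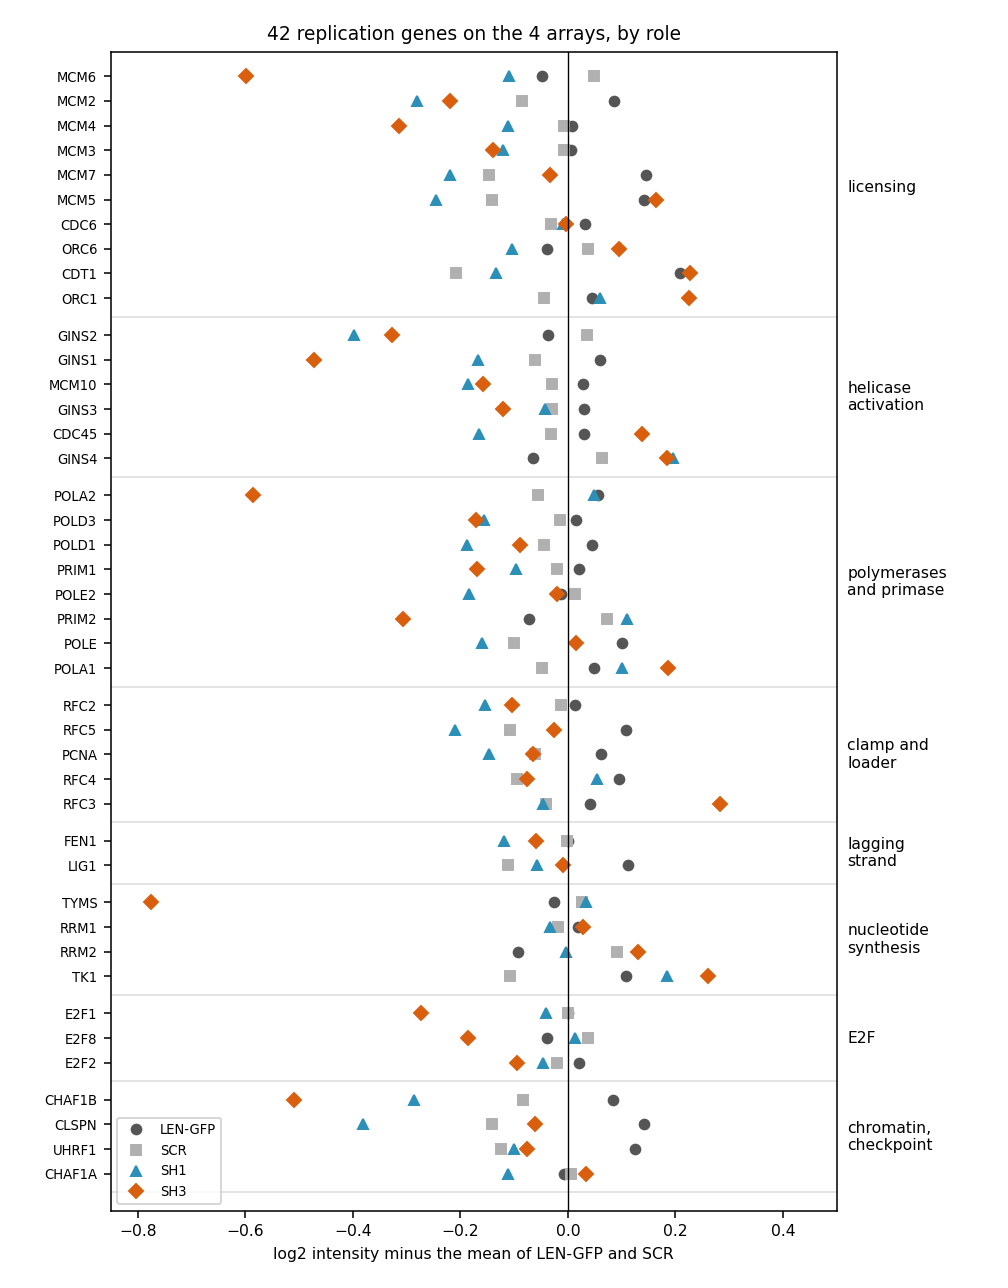
Each row is 1 of the 42 genes and each symbol 1 array (LEN-GFP circle, SCR square, SH1 triangle, SH3 diamond), on a log2 axis relative to the mean of the controls. TYMS, MCM6, POLA2, CHAF1B and GINS1 have SH3 at -0.47 or lower, while TK1 and GINS4 have both hairpins to the right.

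Among the licensing genes the helicase subunits had lower means, and the loading factors differed by little or had higher means. All 6 subunits of MCM2-7 had a lower mean on the hairpin arrays, with a median of -0.17, and in 4 of them both hairpin arrays lay below both controls (19.0% of all genes). For MCM5 and MCM7 the hairpin mean was below the control mean but above SCR (11.02 against 10.92, and 12.14 against 12.12). MCM6 was at 11.10 on LEN-GFP and 11.20 on SCR, and at 11.04 on SH1 and 10.55 on SH3. Its groups did not overlap, and SH3 lay much farther from the controls than SH1 did, with a difference between the groups of -0.35 (SE 0.19). MCM2 was at 11.15 and 10.98 on the controls and at 10.78 on SH1 and 10.84 on SH3, a difference of -0.25 (SE 0.11), with both hairpins below both controls. MCM4 was at 11.22 and 11.21 on the controls, 11.10 on SH1 and 10.90 on SH3, a difference of -0.21 (SE 0.11). MCM3 was at 11.59 and 11.58 on the controls and at 11.46 and 11.45 on the hairpins, so that both pairs lay close together and apart from each other by -0.13 (SE 0.088).

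In the other subunits of the helicase ring the groups overlapped. MCM7 was at 12.41 on LEN-GFP, 12.12 on SCR, 12.05 on SH1 and 12.23 on SH3, with SH3 between the controls. MCM5 was at 11.20 and 10.92 on the controls, 10.81 on SH1 and 11.22 on SH3, so that the hairpins lay at the extremes. Of the loaders, CDC6, the ATPase that brings MCM to origins, was between 10.87 and 10.94 on all 4 arrays, a difference of -0.0065 (SE 0.099). ORC6, a subunit of the origin recognition complex, differed by -0.0042 (SE 0.13), at 9.10 and 9.18 on the controls, 9.04 on SH1 and 9.24 on SH3. ORC1, the largest subunit of that complex, was at 9.65 and 9.56 on the controls and at 9.66 and 9.83 on the hairpins, which were both higher, SH1 by a narrow margin. CDT1, the partner of CDC6 that geminin inhibits, was at 9.35 on LEN-GFP and 9.37 on SH3, against 8.94 on SCR and 9.01 on SH1. Its 4 values fall in 2 pairs that cut across the groups.

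In helicase activation 3 of the 4 GINS subunits were lower and the fourth was higher. GINS2 was at 11.43 and 11.51 on the controls and at 11.07 on SH1 and 11.14 on SH3. The hairpins lay apart from the controls and close to each other, at 77.8% of the control level, with a difference of -0.36 (SE 0.097, limma unadjusted p = 0.0137, adjusted p = 0.797). GINS1 was at 10.90 and 10.78 on the controls, 10.67 on SH1 and 10.37 on SH3, a difference of -0.32 (SE 0.14). GINS3 was between 9.56 and 9.71 on the 4 arrays, with both hairpins under SCR, SH1 by 0.014. GINS4 was at 9.60 and 9.73 on the controls and at 9.86 and 9.85 on the hairpins, a difference of 0.19 (SE 0.12). MCM10, which helps to activate the loaded helicase, was at 9.83 and 9.77 on the controls and 9.62 and 9.64 on the hairpins. CDC45 had its highest value on SH3 (10.19) and its lowest on SH1 (9.89), with the controls at 10.09 and 10.02 between them.

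The polymerase genes were lower in 7 of 8 cases, with a median of -0.12, and 4 of the 8 had both hairpins below both controls (19.0% of all genes). POLA2, the accessory subunit of polymerase alpha, was at 9.89 on LEN-GFP, 9.78 on SCR, 9.88 on SH1 and 9.25 on SH3. SH1 lay among the controls and SH3 alone was low. POLA1, the catalytic subunit of the same enzyme, was at 9.98 and 9.88 on the controls and at 10.03 and 10.11 on the hairpins, a difference of 0.14 (SE 0.11). Both primase subunits had lower means, by -0.13 for PRIM1 and -0.099 for PRIM2. PRIM1 was at 11.19 and 11.15 on the controls and at 11.07 and 11.002 on the hairpins, while PRIM2 was at 9.74 and 9.89, then 9.93 on SH1 and 9.51 on SH3. Minus the control mean, the median of the 4 genes of this complex was 0.074 for SH1 and -0.24 for SH3.

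The 4 listed subunits of polymerases delta and epsilon, which extend the strands, had lower means on the hairpin arrays by 0.16 or less. POLD3, a subunit of polymerase delta, was at 10.30 and 10.27 on the controls and at 10.13 and 10.12 on the hairpins, a difference of -0.16 (SE 0.11). POLD1, its catalytic subunit, was at 8.87 and 8.79 on the controls and at 8.64 and 8.74 on the hairpins. POLE2, the second subunit of polymerase epsilon, was at 10.01 and 10.04, then 9.84 on SH1 and 10.003 on SH3, and its groups were apart by a narrow margin. POLE, the catalytic subunit, was at 10.06 and 9.86 on the controls, 9.80 on SH1 and 9.97 on SH3, a difference of -0.072 (SE 0.14) with SH3 between the controls. None of these 4 genes passed limma's test (adjusted p from 0.807 to 0.929).

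For the clamp and its loader the hairpins lay close to SCR in the median. PCNA, the sliding clamp, was at 10.79 on LEN-GFP, 10.67 on SCR, 10.58 on SH1 and 10.66 on SH3, so that SH3 and SCR nearly coincide. RFC2 was at 12.55 and 12.52 on the controls and at 12.38 and 12.43 on the hairpins, a difference of -0.13 (SE 0.075), with both hairpins below both controls. RFC5 was at 10.38 and 10.16 on the controls, 10.06 on SH1 and 10.24 on SH3, a difference of -0.12 (SE 0.14) with SH3 between the controls. RFC4 was at 12.28 and 12.24 on LEN-GFP and SH1, and at 12.09 and 12.11 on SCR and SH3. RFC3 was at 12.11 on SH3, above the 3 other arrays, which lay between 11.78 and 11.87. All 5 genes of this group were lower on SCR than on LEN-GFP, by a median of -0.12, and the median of the group against SCR alone was -0.0099. Of the lagging-strand genes, FEN1, the flap endonuclease, was at 9.97 on both controls and at 9.85 and 9.91 on the hairpins. LIG1, the ligase that joins Okazaki fragments, was at 9.48 and 9.26 on the controls and at 9.31 and 9.36 on the hairpins, a difference of -0.033 (SE 0.13), with both hairpins between the controls.

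Members of nucleotide synthesis lay on opposite sides. TYMS, thymidylate synthase, which makes thymidylate from deoxyuridylate, was at 11.41 and 11.46 on the controls, 11.47 on SH1 and 10.66 on SH3. SH1 was level with the controls, and SH3 was at 58.4% of their mean. TK1, the thymidine kinase of the salvage route to the same nucleotide, was at 11.44 and 11.22 on the controls and at 11.51 and 11.59 on the hairpins, a difference of 0.22 (SE 0.12, limma adjusted p = 0.797). Both hairpins were above both controls, though SH1 was above LEN-GFP by little. RRM1, the large subunit of ribonucleotide reductase, was between 11.21 and 11.27 on all 4 arrays. RRM2, its small subunit, was at 9.51 and 9.70 on the controls and at 9.60 and 9.73 on the hairpins. The median of the 4 genes was 0.030, against -0.084 for licensing, -0.12 for the polymerases and -0.11 for clamp and loader. Without LEN-GFP these medians were -0.0065 for nucleotide synthesis, -0.011 for licensing, -0.11 for the polymerases and -0.0099 for clamp and loader. Without SCR licensing was at -0.17 and nucleotide synthesis at 0.046, and without SH1 they were at -0.018 and 0.079. With 4 to 10 genes in a role and 2 arrays in a group, these medians are a description, and the roles were not tested against each other.

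The E2F factors of the list were lower by little. E2F1, an activator of S phase genes, was at 9.53 on both controls, 9.49 on SH1 and 9.26 on SH3. E2F2 was at 8.52 and 8.48 on the controls and at 8.46 and 8.41 on the hairpins, and E2F8, a repressor of the same targets, was at 9.61 and 9.68, then 9.66 on SH1 and 9.46 on SH3. In all 3 the SH3 array was the lowest.

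CHAF1B had the lowest difference of the 42. This subunit of the chromatin assembly factor, which places histones on new DNA, was at 9.74 on LEN-GFP, 9.57 on SCR, 9.37 on SH1 and 9.14 on SH3. The hairpins lay below both controls, with a mean at 75.9% of control and a difference of -0.40 (SE 0.14, limma unadjusted p = 0.0378, adjusted p = 0.797). CHAF1A, the large subunit of the same factor, was at 10.10 and 10.11 on the controls and at 9.997 and 10.14 on the hairpins. CLSPN (claspin), the adaptor of the checkpoint kinase CHK1 at the fork, was at 9.41 and 9.13 on the controls, 8.89 on SH1 and 9.21 on SH3, and its other probe set differed by -0.13 against -0.22 for the brighter. UHRF1, which brings the maintenance methyltransferase to new DNA, was at 10.79 on LEN-GFP and between 10.54 and 10.59 on the other 3 arrays. Its other, dimmer probe set differed by 0.024.

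Set alone against both controls, SH3 gave 5 members past the test and SH1 gave none. On SH3, limma called TYMS (-0.77, SE 0.10, adjusted p = 0.00218), MCM6 (-0.60, SE 0.11, adjusted p = 0.00904), POLA2 (-0.59, SE 0.13, adjusted p = 0.0218), GINS1 (-0.47, SE 0.12, adjusted p = 0.0309) and CHAF1B (-0.51, SE 0.14, adjusted p = 0.0474), all lower. These 5 are 11.9% of the members, against 7.0% of all genes called lower on SH3, and 0 members were called higher, against 6.33%. On SH1 0 members were called, against 0.248% of all genes lower and 0.155% higher. The lone hairpin array is assumed in these tests to vary like the pair of controls, and both hairpins were compared with the same controls. A difference between the hairpins passed the test itself for TYMS (SH3 minus SH1 -0.81, SE 0.12, limma adjusted p = 0.00576) and POLA2 (-0.63, SE 0.15, adjusted p = 0.0389), with a background of 4.48% of all genes lower and 4.01% higher. For MCM6 it was -0.49 (SE 0.13, adjusted p = 0.0501), for GINS1 -0.31 (SE 0.14, adjusted p = 0.231) and for CHAF1B -0.22 (SE 0.16, adjusted p = 0.510). Among the members, the share called lower in this test between the hairpins was near the background. ZFX itself was at 10.13 on SH1 and 10.12 on SH3.

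**Figure D2:**
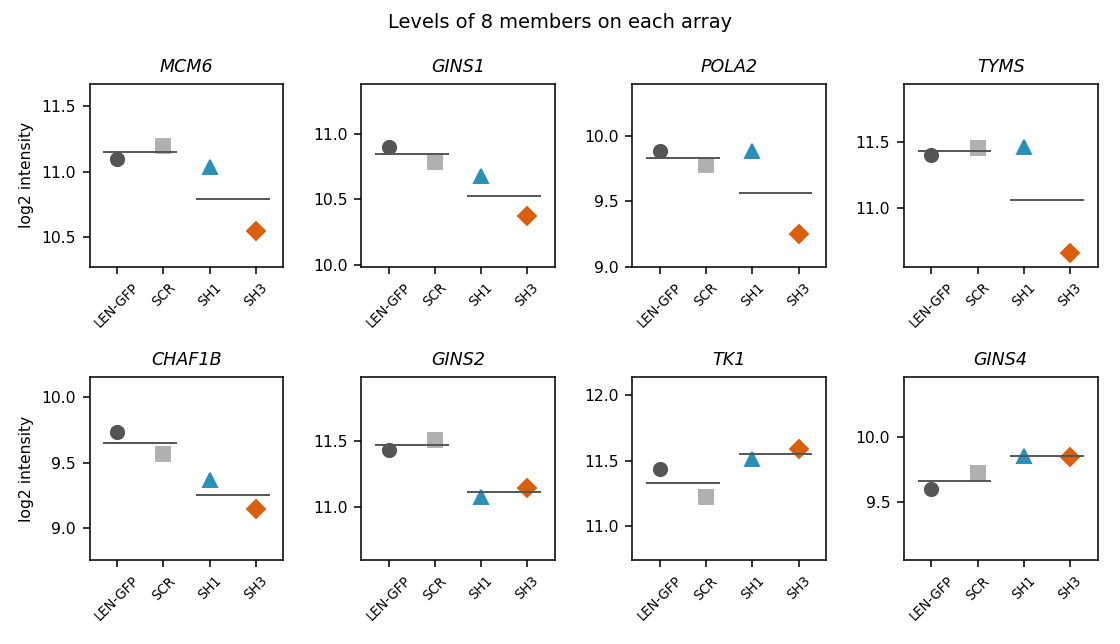
Log2 intensity of 8 genes on each array, with lines at the mean of each pair of arrays; each panel spans the same range on its log2 axis. POLA2 and TYMS are low on SH3 alone, while for GINS2 both hairpins lie below both controls and for TK1 and GINS4 above them.

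The number of members below the control mean was larger for SH1 than for SH3, although SH3 held the large values. On SH1 33 of 42 were lower than the control mean, with a median of -0.11, and on SH3 29 of 42, with a median of -0.070. Both hairpins were below the control mean for 24 members (57.1%, against 30.1% of all genes). For the licensing genes the SH1 median was -0.12 and the SH3 median -0.018, for helicase activation -0.17 and -0.14, for the polymerases -0.13 and -0.13, and for clamp and loader -0.15 and -0.064. The E2F factors went the other way, with -0.041 on SH1 and -0.19 on SH3. SH3 was below SH1 for 16 of the 42 members, and above it for the others, by up to 0.41 for MCM5.

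**Figure D3:**
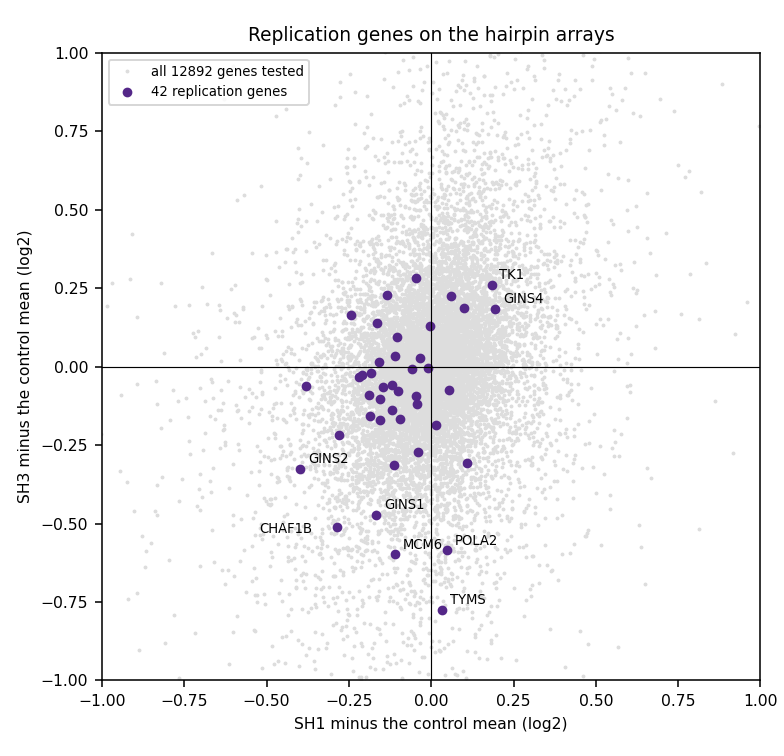
Each point is a gene, with SH1 (x axis) and SH3 (y axis) minus the mean of the controls in log2 units; grey points are all 12892 genes tested, of which 272 lie outside the axes, and purple points the 42 replication genes. Most purple points lie to the left of 0. TYMS and POLA2 lie low on the SH3 axis near 0 on the SH1 axis, while MCM6 is at -0.60 on SH3 and -0.11 on SH1. Both axes share the controls.

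The other replication genes, 43 that are not in the list above, had a smaller median difference. Of the 43, 25 were lower and 18 higher, with a median of -0.049, and 8 had both hairpins below both controls and 6 above, which is no more than the 19.0% and 18.2% of all genes. None passed limma's test of the groups, and 3 were lower on SH3 in the test of that hairpin, near the background of 7.0%. The largest differences were those of CDC7, the kinase that fires origins (-0.57, SE 0.34), of SSRP1, a subunit of the histone chaperone FACT (-0.39, SE 0.14), and of POLD2, a subunit of polymerase delta (-0.37, SE 0.13). CDC7 was at 8.67 and 8.45 on the controls and 8.49 on SH1, and at 7.50 on SH3 alone (limma adjusted p for SH3 = 0.00331). POLD2 was at 11.04 and 10.75 on the controls and at 10.53 and 10.52 on the hairpins.

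Among 15 other nucleotide enzymes tested, 8 were lower and 7 higher, with a median of -0.030. Both hairpins lay below both controls for 4 of the 15 and above for 3, against 19.0% and 18.2% of all genes. The 3 genes named here had the largest differences between the groups. UNG, which removes uracil from DNA, was at 8.81 and 8.88 on the controls, 8.73 on SH1 and 7.37 on SH3, and CTPS1, a CTP synthase, was at 9.39 and 9.35, then 9.24 and 8.62. CDA, cytidine deaminase of the salvage route, was at 10.87 and 10.9998 on the controls, 11.27 on SH1 and 11.93 on SH3. Over the 15 genes the median against the control mean was 0.0078 for SH1 and -0.040 for SH3, with 7 and 8 lower. UNG, like TYMS, was low on SH3 and close to the controls on SH1.

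Of 21 other genes of the E2F and RB network 14 were lower, with a median of -0.089. TFDP2, a dimer partner of E2F, was at 10.62 and 10.79 on the controls, 10.36 on SH1 and 9.81 on SH3, a difference of -0.62 (SE 0.21). CCNE1, cyclin E1, differed by -0.61 (SE 0.22), and E2F5, a repressive E2F, by -0.54 (SE 0.23), and in all 3 both hairpins were below both controls. Of the whole 21, 6 had both hairpins below both controls and 2 above, against 19.0% and 18.2% of all genes. On SH3 6 of the 21 were lower and 2 higher in limma's test of that hairpin, against 7.0% and 6.33% of all genes, while none passed the test of the groups.

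Replication-dependent histone genes, whose mRNA is made in S phase, had lower values on SCR than on LEN-GFP in most cases. Many are near-identical copies, so that single histone values are uncertain. Of 47 tested in a list that includes the histone mRNA factors SLBP and NPAT, 34 were lower with the hairpins, by a median of -0.059, and 9 had both hairpins below both controls, near the 19.0% of all genes. SCR was below LEN-GFP for 44 of 47, by a median of -0.17. Against the control mean the SH1 median was -0.15 and the SH3 median 0.037. H2AC15, a gene of histone H2A, was at 11.49 on LEN-GFP, 10.59 on SCR, 10.37 on SH1 and 11.004 on SH3. NPAT, a coactivator of histone genes, was at 10.36 and 10.23 on the controls, 10.35 on SH1 and 10.84 on SH3, and H1-5, a linker histone, differed by -0.23 (SE 0.10). None passed the test of the groups in limma.

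Genes of the later phases of the cycle were higher in more cases than lower on SH3, but not on SH1. Of 39 genes of G2 and mitosis, 14 were lower and 25 higher, with a median of 0.029, and 3 had both hairpins below both controls and 8 above (19.0% and 18.2% of all genes). Against the control mean, 20 of the 39 were lower on SH1 (median -0.0021) and 11 on SH3 (median 0.084). MAD2L1, of the spindle checkpoint, differed by -0.29 (SE 0.11). TTK, a kinase of the same checkpoint, differed by 0.27 (SE 0.17) and KIF23, a kinesin of cytokinesis, by 0.25 (SE 0.16). On SH1 TTK lay 0.052 and KIF23 0.062 above the control mean, and on SH3 0.48 and 0.43. Of 28 recombination and checkpoint genes 13 were lower and 15 higher, with a median of 0.047, and 5 had both hairpins below both controls and 8 above. On SH1 16 of the 28 were below the control mean (median -0.026), and on SH3 10 (median 0.10). FANCL, the ligase of the Fanconi pathway, differed by -0.44 (SE 0.32) and RAD54B, a translocase of recombination, by -0.41 (SE 0.17). Of 8 G1 cyclins, kinases and inhibitors 3 were lower, with CDK4, the kinase that phosphorylates RB, at -0.27 (SE 0.097), the inhibitor CDKN1B at 0.25 (SE 0.13) and CDK6 at 0.082 (SE 0.086). In limma's test of the groups 0 genes of these lists passed, and the difference between these lists and the replication genes was not tested.

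**Figure D4:**
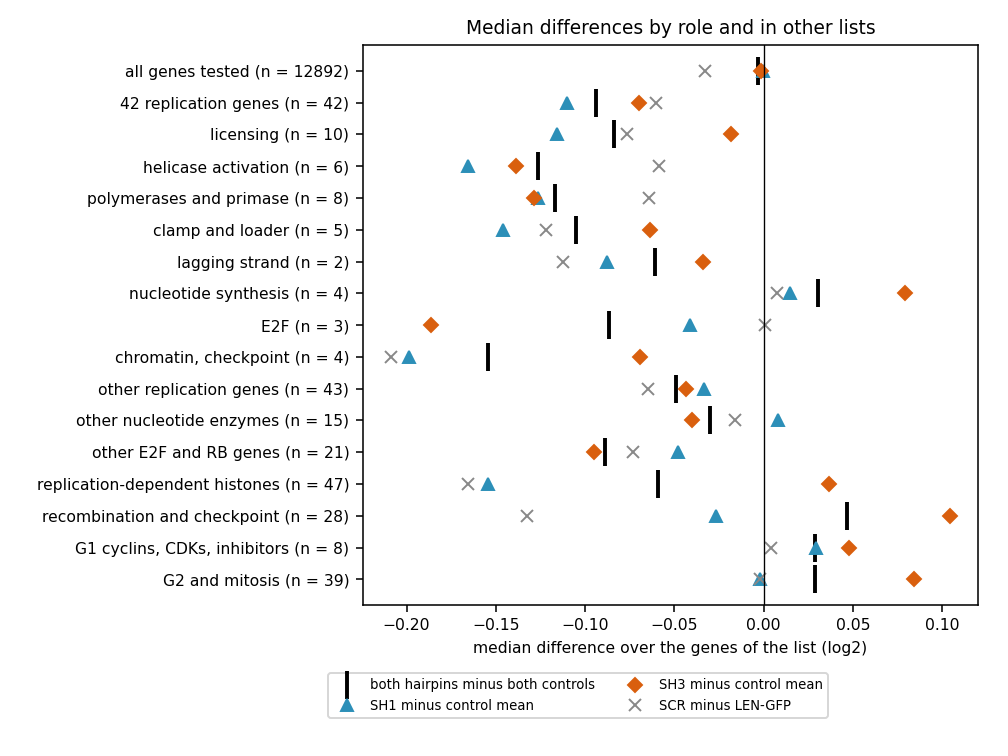
Each row is a role or list with the number of genes tested, and the x axis is the median log2 difference over its genes; the bar is both hairpins minus both controls, the triangle SH1 and the diamond SH3 minus the control mean, and the cross SCR minus LEN-GFP. The 42 replication genes lie at -0.094 and G2 and mitosis at 0.029. For the histones the cross is at -0.17 and the triangle at -0.15. The cross is counted from LEN-GFP and the triangle from the control mean, so their positions do not compare SH1 with SCR.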

How the data were processed

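Total RNA of 4 NOMO-1 cultures was measured on 1 expression array each. Per the labels' protocols, 200 ng of Trizol-extracted RNA was labelled with the Ambion WT kit. The authors deposited a linear intensity for each of 33297 probe sets, and the submitters' processing notes name Affymetrix Expression Console 1.1 and RMA. How RMA's log2 values became linear intensities is a step not given in the sources used here. No detection calls come with the table, and the number of arrays limits the precision. Median intensity was 184.8 to 189.8 per array.

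Each intensity was log2-transformed without an offset. Names of probe sets come from the platform annotation, in which 19460 carried 1 symbol, 1754 several and the others none, and coordinates come from the RefSeq table of GRCh38.p14. The probe set of highest mean log2 stood for its gene, and the 30% dimmest genes (5525, mean log2 under 6.70) were left out. limma 3.58.1 in R 4.3.3 (lmFit, eBayes with an intensity trend, two-sided, Benjamini-Hochberg over 12892 genes, threshold 0.05) compared the groups with 2 residual degrees of freedom, and single hairpins with the control pair with 1. An exact permutation test of 2 against 2 arrays cannot go below 0.333 and was not used. The limma step was run on simulated data with effects larger than any difference between the groups among the members. That run does not tell whether differences as small as theirs could be found.

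Members and lists were chosen with earlier results of these data known. Values on every array were given for the 3 members of largest difference and the 1 nearest 0 in each role, for members past the threshold in any comparison and for those whose hairpins differed in sign by over 0.5. Some others are named to complete a complex, after their values were seen. Each other list gave up to 3 genes of largest difference, of which 1 is not reported here. Alternatives changed the filter, offset, scaling, probe set rule and variance model, and left out each array.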

Additional observations from a re-analysis of the deposited data

How the results depend on the processing

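With 2 arrays in a group, leaving out 1 array was the setting that mattered. Genes past the threshold in limma ranged from 0 to 1698 over all genes (1698 without SH1, 54 without SH3) and from 0 to 5 among the members (5 without SH1), with the lone array assumed to vary like the others. The members' median ranged from -0.15 (without SCR) to -0.051 (without LEN-GFP), and members with groups apart from 19 to 28 lower and from 5 to 12 higher. Medians ranged from -0.17 to -0.011 for licensing, from -0.16 to -0.11 for the polymerases, from -0.15 to -0.0099 for clamp and loader and from -0.0065 to 0.079 for nucleotide synthesis, which turned below 0 without LEN-GFP. Of the 29 genes run under each setting, those that changed sign were CDC45 (-0.16 to 0.14), POLE (-0.17 to 0.028), RFC4 (-0.11 to 0.084), LIG1 (-0.14 to 0.079), RRM2 (-0.029 to 0.16), RRM1 (-0.033 to 0.028), UHRF1 (-0.21 to 0.037), ORC6 (-0.10 to 0.096), CHAF1A (-0.11 to 0.034), POLA2 (-0.59 to 0.049), RFC3 (-0.046 to 0.28), TYMS (-0.77 to 0.034) and E2F8 (-0.19 to 0.013). MCM5, CDT1 and PRIM2, which were not among the 29, also had SH1 and SH3 on opposite sides of the control mean. Quantile normalization turned ORC6 to 0.0034 and RFC4 to 0.0028, and the cause was not tested. Of 348 values of 29 named genes under 12 settings, 322 kept direction and side of the threshold, 5 newly passed it and 21 changed sign. Offset, filter, centring, probe set rule and variance model turned no count or median over the members or roles. No paired analysis was possible because the arrays share only a number given in accession order.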
